A study of Homo sapiens with 6 samples.

Results

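The small-subunit processome is the large nucleolar particle that folds, modifies and cuts the precursor of 18S ribosomal RNA while the small (40S) ribosomal subunit is being built. Messenger RNA levels of 38 of its assembly factors, together with the enzymes that modify 18S rRNA, were followed here in HCT116, an established human cell line from a colorectal carcinoma. The members were listed by gene symbol, as those of early nucleolar 40S assembly. Earlier results of these data were known when the list was made. A gene was measured when at least 1 probe set, the group of oligonucleotides that reports 1 transcript, carried its symbol and no other. This held for 37 of the 38 members, with 91 probe sets out of 49293 tested, among 18132 genes measured in all. PWP2 was the member without such a probe set.

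Cells were transduced with a lentivirus encoding a short hairpin RNA against PNO1 (sh-PNO1, 3 arrays) or a control shRNA (sh-Ctrl, 3 arrays), and RNA was taken after 72 h. PNO1 is itself a late factor of 40S assembly, required for the final steps of 18S rRNA maturation. Both groups carried a lentiviral vector, the labels name 1 hairpin against PNO1 and give no sequence for it, and nothing states that the replicates are separate cultures. The p-values therefore cover just the variation from array to array, part or all of which may be technical. RNA was pooled from all cells of a sample, so a change in every cell and a change in some of them cannot be told apart.

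The target fell on each of its 3 probe sets. The brightest read 535, 535 and 532 on the sh-Ctrl arrays and 105, 108 and 105 on the sh-PNO1 arrays, which left 19.8% of the control level (log2 fold change −2.33 ± 0.04 SE, limma adjusted p = 3.32e-07; exact two-sided permutation p = 0.1, the smallest that 3 arrays against 3 allow). Array medians lay between 25.6 and 25.9. The epithelial markers EPCAM, KRT8, KRT18, KRT19 and CDH1 had group mean intensities from 232 (CDH1) to 3000 (KRT19), each on its brightest probe set. Those of 8 leukocyte, fibroblast and endothelial markers ranged from 3.65 (PTPRC) to 43.5 (CD79A). On these brightest probe sets KRT19 (2329 to 3000) and CDH1 (232 to 287) were higher and CD79A (43.5 to 36.7) lower in sh-PNO1 at adjusted p = 0.000560, 0.00222 and 0.0159. Over all 45 marker probe sets 5 were higher and 2 lower at an adjusted p under 0.05 in limma, the rest being dimmer ones of KRT8 (log2 fold change 0.17, adjusted p = 0.0457), COL1A1 (0.39, 0.0244) and COL3A1 (0.27, 0.0117) that were higher and of KRT18 (−0.21, 0.0207) that was lower. The part of these changes in the results below was not tested. The array of sh-PNO1 replicate 2 stood apart in 1 respect: the log2 signal at the 3′ end of ACTB minus that at the 5′ end was 2.25, where the other 5 arrays had 1.73 to 1.87, a measure that bears on RNA quality.

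As background, the processome forms on the nascent ribosomal RNA precursor. The UTP-A complex binds the leading part of the transcript first, and UTP-B follows together with the U3 small nucleolar ribonucleoprotein, whose RNA base-pairs with the precursor. Later arrivals include the MPP10 complex, a GTPase, nucleases and helicase cofactors, and the particle is then dismantled into a pre-40S subunit on which PNO1 and its partners act. In the results below a gene is represented by its brightest probe set, meaning the one with the highest mean over the 6 arrays. A gene passed when its adjusted p in limma was under 0.05 over all 49293 probe sets, and log2 fold changes are sh-PNO1 minus sh-Ctrl.

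The factors moved in both directions and by small amounts. Of the 37 measured members 10 rose and 4 fell. The members that rose were NOL10, BUD23, UTP23, RCL1, RRP7A, NGDN, RRP9, IMP4, WDR3 and NOL11, and those that fell were WDR36, WDR75, HEATR1 and NAT10. Among all genes 18.4% rose and 13.2% fell by the same rule, against 27.0% and 10.8% of the members. The median log2 fold change was 0.07 over the members and 0.03 over all genes, and the median size regardless of sign was 0.13 and 0.11. The extremes were NOL10 at 0.35 and WDR36 at −0.46, so no member reached a 2-fold change. In 25 members (67.6%) the groups did not overlap, compared with 44.7% of all genes. The sh-PNO1 arrays lay above in 15 of them and below in 10, against 26.3% and 18.4% of all genes. Members and all genes were not matched for intensity, and the part of intensity in these shares was not tested.

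Of the 14 members that passed, 6 lost the call in at least 1 fit with a single array left out. A fit with 1 array fewer is also less able to detect a change. A lost call therefore does not show that the array left out had carried it. The number that fell was 2 without sh-Ctrl replicate 2, without sh-Ctrl replicate 3 or without sh-PNO1 replicate 2, and the number that rose ranged from 7 to 9 with 1 array left out. With the threshold at an adjusted p of 0.01, 6 rose and 1 fell. The other 8 passed with any single array left out: NOL10, BUD23, RCL1, RRP7A, NGDN, RRP9, IMP4 and WDR36.

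**Figure D1:**
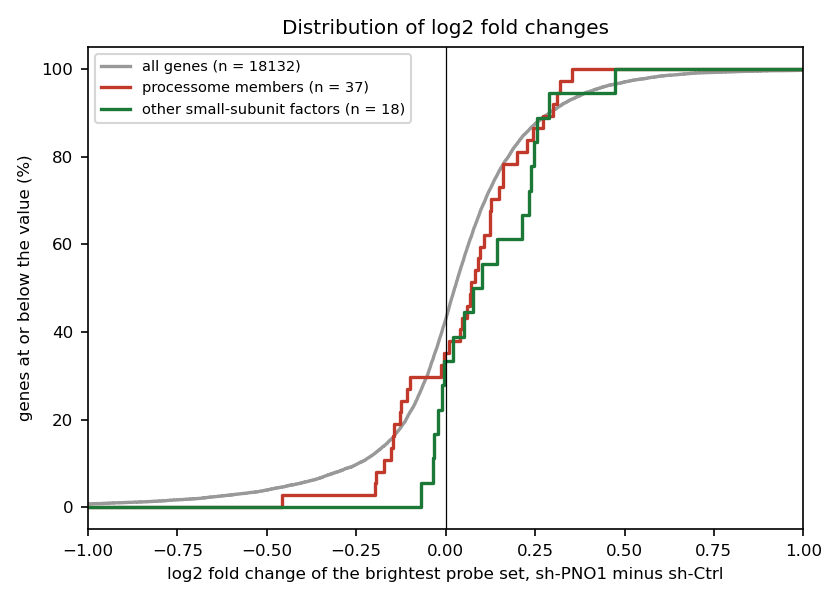
Cumulative share of genes (vertical axis, %) at or below a log2 fold change (horizontal axis, sh-PNO1 minus sh-Ctrl), with 1 brightest probe set per gene. The 37 members (red) run from −0.46 to 0.35 with a median of 0.07, the 18 other small-subunit factors (green) have a median of 0.09 and the 18132 measured genes (grey) one of 0.03. Values beyond −1 and 1 are outside the axis.

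Promoter sequence was not used in the choice of genes. Windows of 300 bases, from 250 before the RefSeq start of the gene to 50 from it (GRCh38.p14), were matched for 33 of the 37 members. No window was available for NOL10 and UTP23, which rose, or for DCAF13 and MPHOSPH10, which did not pass. The letters CACGTG, the palindromic E-box to which MYC with MAX and related proteins are known to bind, occurred in 13 of the 33 (39.4%) and were absent from the windows of the other 20. They occurred in 8.82% of the 14425 matched promoters of all measured genes and in 7.26% of all 35116 promoters in that table. Of the 15 matches in members 10 began within 20 bases of the start, each in a different gene, which is 30.3% of the member promoters and 1.48% of those of all measured genes; this distance was chosen after the positions were seen. The letters occurred with both directions of change and without a call. Of the 8 matched members that rose 3 hold CACGTG (IMP4, RCL1 and RRP9), as does 1 of the 4 that fell (NAT10). The other members that hold it did not pass: AATF, NOL6, NOP14, UTP14A, UTP18, UTP20, UTP4, WDR43 and WDR46. The 10 promoters with a match within 20 bases of the start are shown from 60 bases before it to 25 bases from it. They run 5′ to 3′ on the strand of the gene, with CACGTG in capitals. WDR36, the member with the largest decrease, follows as a promoter without a match in its window.
IMP4 (chr2:130342837-130342921, + strand): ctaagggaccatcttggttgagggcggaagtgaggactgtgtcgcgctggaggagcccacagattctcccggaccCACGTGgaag
NAT10 (chr11:34105569-34105653, + strand): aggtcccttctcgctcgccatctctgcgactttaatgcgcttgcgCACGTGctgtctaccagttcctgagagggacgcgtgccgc
NOL6 (chr9:33473900-33473984, - strand): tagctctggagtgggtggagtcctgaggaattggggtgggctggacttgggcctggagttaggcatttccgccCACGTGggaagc
NOP14 (chr4:2963382-2963466, - strand): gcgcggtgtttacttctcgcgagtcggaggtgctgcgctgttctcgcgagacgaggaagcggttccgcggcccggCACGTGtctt
RCL1 (chr9:4792884-4792968, + strand): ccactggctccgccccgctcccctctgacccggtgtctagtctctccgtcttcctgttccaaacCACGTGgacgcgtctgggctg
RRP9 (chr3:51941880-51941964, - strand): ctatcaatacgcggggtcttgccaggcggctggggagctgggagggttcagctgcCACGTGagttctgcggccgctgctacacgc
UTP18 (chr17:51260486-51260570, + strand): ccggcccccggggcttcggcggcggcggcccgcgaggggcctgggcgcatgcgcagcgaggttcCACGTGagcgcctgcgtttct
UTP20 (chr12:101280045-101280129, + strand): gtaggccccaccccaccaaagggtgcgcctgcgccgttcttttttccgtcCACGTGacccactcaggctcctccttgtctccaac
UTP4 (chr16:69132589-69132673, + strand): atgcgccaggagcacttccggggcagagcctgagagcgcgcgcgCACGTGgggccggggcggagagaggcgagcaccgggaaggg
WDR43 (chr2:28894607-28894691, + strand): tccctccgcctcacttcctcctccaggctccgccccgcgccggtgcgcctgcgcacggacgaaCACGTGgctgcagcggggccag
WDR36 (chr5:111092288-111092372, + strand): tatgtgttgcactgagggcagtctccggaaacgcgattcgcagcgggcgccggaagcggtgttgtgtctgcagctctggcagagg

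Other motifs searched on both strands were also more frequent among members than among measured genes. The GC box GGGCGG was found in 27 of the 33 members (81.8%) and in 59.7% of the promoters of measured genes (44.95% of all promoters). The core of the ETS family, CCGGAAG, was found in 12 (36.4%) against 14.6% (10.3% of all). The GC box was present in all 8 matched members that rose and in 3 of the 4 that fell. These shares were not tested, the base composition of the promoters was not matched, and a match is a run of letters and not evidence of binding.

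In the UTP-A complex 4 members were below the controls and 2 above, against 7765 below and 10367 above among all 18132 genes. WDR43, counted as above, stood at 0.01 (adjusted p = 0.919). The proteins of this complex bind the leading end of the precursor. Some are also known to be needed for transcription of ribosomal DNA. Of 6 measured, HEATR1 and WDR75 fell, NOL11 rose, and the median log2 fold change was −0.15. HEATR1, a large scaffold of helical repeats, read 322 on all 3 sh-Ctrl arrays and 293, 278 and 286 on the sh-PNO1 arrays. All sh-PNO1 values lay below the control value, a log2 fold change of −0.17 ± 0.04 SE (adjusted p = 0.0168); its other 3 probe sets stood between −0.14 and −0.03 and did not pass. Their mean with the brightest did not pass either (−0.10, adjusted p = 0.127). Without sh-PNO1 replicate 2, the array with the larger ACTB difference, the brightest stood just outside the threshold (adjusted p = 0.0501).

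WDR75, a WD-repeat protein of the same complex, read 316, 335 and 331 in sh-Ctrl and 301, 285 and 272 in sh-PNO1. The groups did not overlap, and the log2 fold change was −0.20 ± 0.05 SE (adjusted p = 0.0264). Its second probe set fell further, by 0.34 on the log2 scale. Leaving out single arrays ended the call of the brightest in 4 of 6 cases (adjusted p = 0.0888 when sh-Ctrl replicate 2 was the one left out).

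UTP15, which joins the same scaffold, showed the largest change of any member probe set, and it is described in full because of that value. On its brightest probe set the 3 sh-Ctrl arrays read 101, 105 and 101 and the sh-PNO1 arrays 85.8, 96.7 and 95.7, a log2 fold change of −0.14 that did not pass (adjusted p = 0.0998). On the dimmest it read 62.7, 55.7 and 58.1 against 36.3, 36.3 and 36.3, which is −0.70 ± 0.05 SE (adjusted p = 5.46e-05). The third stood between them at −0.31 (adjusted p = 0.00272). With the probe sets of each gene averaged, UTP15 stood at −0.38 and passed in limma (adjusted p = 0.000115). On all 3 probe sets every sh-PNO1 array lay below every sh-Ctrl array, while the sizes differed between them.

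UTP4, also called cirhin, stood at −0.15 (adjusted p = 0.0547) with separate groups, and WDR43, a further WD-repeat subunit, at 0.01. NOL11, another subunit of UTP-A, went the other way. It read 699, 694 and 689 in sh-Ctrl and 753, 757 and 760 in sh-PNO1, so every treated array lay above the controls. The log2 fold change was 0.13 ± 0.04 SE (adjusted p = 0.0491), and its second probe set rose by 0.21. The brightest did not pass with any single array left out (adjusted p up to 0.106), and with the arrays shifted to equal medians its adjusted p was 0.0643.

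**Figure D2:**
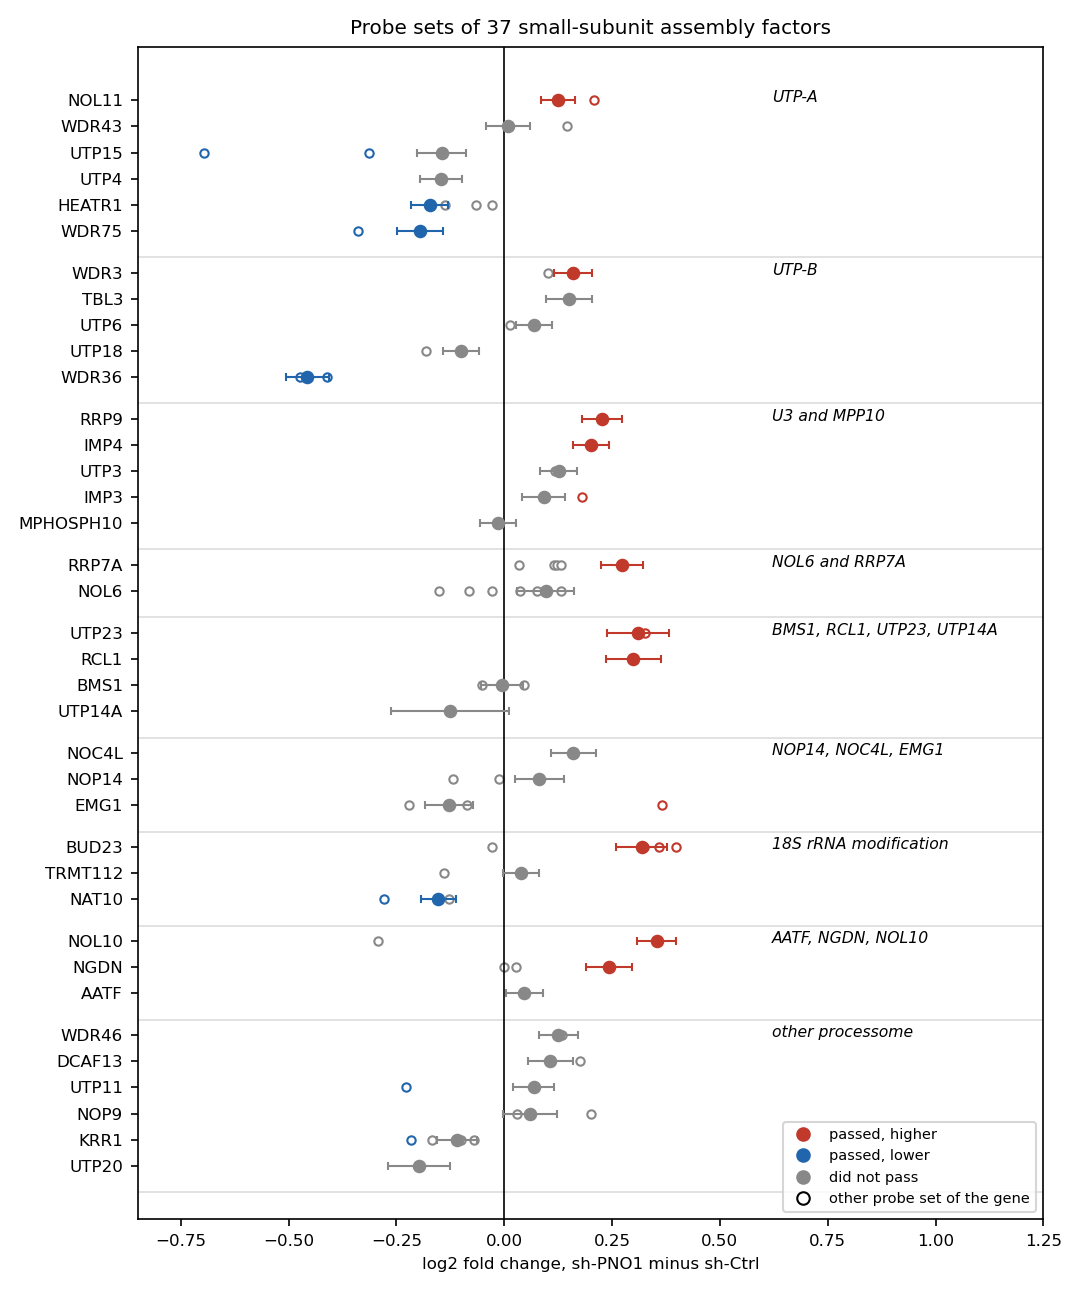
Log2 fold change (horizontal axis, sh-PNO1 minus sh-Ctrl) of all 91 probe sets of the 37 measured members, grouped by role. Filled points are the brightest probe set of a gene with its standard error from limma, open points its other probe sets, and red, blue and grey mark those that passed as higher, passed as lower or did not pass. The 3 WDR36 probe sets lie together between −0.47 and −0.41, whereas those of UTP15 spread from −0.70 to −0.14.

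UTP-B, a complex made largely of WD-repeat proteins that joins after UTP-A, held the strongest decrease of all members. WDR36 read 379, 379 and 366 in sh-Ctrl and 287, 261 and 271 in sh-PNO1. The groups were far apart for their spread, 374 ± 7.22 (SD, n = 3) against 273 ± 13.4 (SD, n = 3), and 72.9% of the control level remained. Its log2 fold change was −0.46 ± 0.05 SE (adjusted p = 0.000344), and the other probe sets gave −0.41 and −0.47, each of which passed. It was the only member whose brightest probe set passed a test against a log2 change of 0.2 in either direction.

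WDR3 moved the opposite way within this complex. It read 419, 425 and 398 in sh-Ctrl and 459, 463 and 464 in sh-PNO1, without overlap, for a log2 fold change of 0.16 ± 0.04 SE (adjusted p = 0.0305). The call was lost without any single array except sh-Ctrl replicate 2 (adjusted p up to 0.0852), and its dim second probe set stood at 0.10. The other scaffold subunits TBL3 (0.15, adjusted p = 0.0767), UTP6 (0.07, 0.268) and UTP18 (−0.10, 0.121) did not pass in limma. The groups were separate in each, as they were in 44.7% of all genes.

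The U3 and MPP10 proteins had a median log2 fold change of 0.13 over 5 genes. Of these 2 rose and 0 fell in limma (0 also at an unadjusted p under 0.05). By the same rule 18.4% of all genes rose and 13.2% fell. RRP9, a protein specific to the U3 particle, read 149, 154 and 147 in sh-Ctrl and 174, 182 and 171 in sh-PNO1. Every treated array was higher, and the log2 fold change was 0.23 ± 0.05 SE (adjusted p = 0.00713). IMP4, which with IMP3 and MPHOSPH10 forms the MPP10 complex, read 435, 433 and 434 against 512, 489 and 496. Its control arrays were nearly equal, and it rose by 14.9% (log2 fold change 0.20 ± 0.04 SE, adjusted p = 0.00835). Each of these genes had a single probe set.

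The partners of IMP4 did not pass on their brightest probe sets. IMP3, which helps U3 RNA pair with the precursor, stood at 0.09 with overlapping groups; its second probe set rose by 0.18 (adjusted p = 0.0197). MPHOSPH10, the protein that gives the complex its name, stood at −0.01 and overlapped as well. UTP3 stood at 0.13 and 0.12 on its probe sets, with adjusted p-values of 0.0650 and 0.0769 and no overlap.

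NOL6 and RRP7A are the measured counterparts of the yeast UTP-C module. RRP7A read 84.7, 79.9 and 78.4 in sh-Ctrl and 95.7, 101 and 96.6 in sh-PNO1, separate groups with a log2 fold change of 0.27 ± 0.05 SE (adjusted p = 0.00420). Only that probe set of its 5 passed. The others lay between 0.03 and 0.13, and with _x_at and _s_at probe sets, which can match several transcripts, left out, the gene stood at 0.11 (adjusted p = 0.132). NOL6 stood at 0.10, and none of its 7 probe sets passed, with values from −0.15 to 0.13 (2 had an unadjusted p under 0.05).

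Of the enzymes of cleavage and release, RCL1 and UTP23 rose. RCL1, a cyclase-like protein that partners the GTPase BMS1, read 104, 107 and 95.7 in sh-Ctrl and had a mean of 126 ± 7.67 (SD, n = 3) in sh-PNO1, the lowest of whose arrays read 117. The groups did not overlap and the log2 fold change was 0.30 ± 0.06 SE (adjusted p = 0.00930). With an unmoderated statistic it did not pass (adjusted p = 0.0597). BMS1, which is thought to trigger a rearrangement of the particle, stood at −0.005 ± 0.05 SE with its groups overlapping.

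UTP23, a nuclease-like protein linked to release of a small nucleolar RNA, read 185, 196 and 185 in sh-Ctrl and 261, 218 and 225 in sh-PNO1. The sh-PNO1 replicate 1 array was the highest, but all 3 exceeded the controls. The log2 fold change was 0.31 ± 0.07 SE (adjusted p = 0.0139), and the second probe set gave 0.33 (adjusted p = 0.00450). The brightest did not pass without sh-Ctrl replicate 1 (adjusted p = 0.0567) or without sh-Ctrl replicate 3 (0.0582). UTP14A, a cofactor of the helicase that dismantles the particle, had a single dim probe set with intensities from 10.7 to 16.1, a log2 fold change of −0.13 and overlapping groups; without sh-PNO1 replicate 1 it stood at 0.04.

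The module of NOP14, NOC4L and EMG1, which organises the head of the subunit, had no member that passed (1 higher and 0 lower at an unadjusted p under 0.05). These are 3 genes, and of all genes 18.4% rose and 13.2% fell. NOC4L stood at 0.16 (adjusted p = 0.0526) with separate groups and NOP14 at 0.08. EMG1, a methyltransferase that acts on a pseudouridine of 18S rRNA, stood at −0.13 (adjusted p = 0.136), although all treated arrays were lower. The second brightest of its 5 probe sets agreed at −0.13, while a very dim one, 6.33 to 7.07 on control arrays and up to 9.44 in sh-PNO1, rose by 0.37 (adjusted p = 0.00710).

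The enzymes that modify 18S rRNA split by enzyme. BUD23, the methyltransferase that makes 7-methylguanosine in 18S rRNA, read 688, 684 and 664 in sh-Ctrl and 791, 914 and 839 in sh-PNO1. All treated arrays were higher, with a mean of 848 ± 62.1 (SD, n = 3) against 679 ± 12.5 (SD, n = 3). Its log2 fold change was 0.32 ± 0.06 SE (adjusted p = 0.00490), and 4 of its 5 probe sets rose. Of these 3 carry the suffix _x_at, and the fourth, with the suffix _a_at, rose by 0.40. TRMT112, the small protein that stabilises BUD23 and other methyltransferases, stood at 0.04 and, on its second probe set, at −0.14, neither of which passed.

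NAT10, the acetyltransferase that makes N4-acetylcytidine, fell. It read 243, 243 and 241 in sh-Ctrl and 214, 219 and 221 in sh-PNO1, with no overlap, for a log2 fold change of −0.15 ± 0.04 SE (adjusted p = 0.0247). Of its 3 probe sets 2 fell, the other by 0.28 on the log2 scale. The brightest did not pass without sh-PNO1 replicate 2 or without any one sh-Ctrl array (adjusted p up to 0.0642).

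AATF, NGDN and NOL10 include the largest increase. NOL10, a WD-repeat protein, read 201, 188 and 194 in sh-Ctrl and 243, 248 and 253 in sh-PNO1. The treated arrays were all higher, by 27.8% in the fitted ratio (log2 fold change 0.35 ± 0.05 SE, adjusted p = 0.000778). Its second probe set, dim at 10.96 to 17.9, pointed down at −0.29 and did not pass (adjusted p = 0.121), and the mean of both stood at 0.03 (adjusted p = 0.784). NGDN, which binds AATF in a nucleolar complex, read 347, 345 and 354 in sh-Ctrl and 387, 436 and 416 in sh-PNO1. This rise of 0.24 ± 0.05 SE (adjusted p = 0.0107) was not seen on its 2 dim probe sets (0.03 and −0.001), and the mean of the 3 did not pass (0.09, adjusted p = 0.104). AATF stood at 0.05 with overlapping groups.

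**Figure D3:**
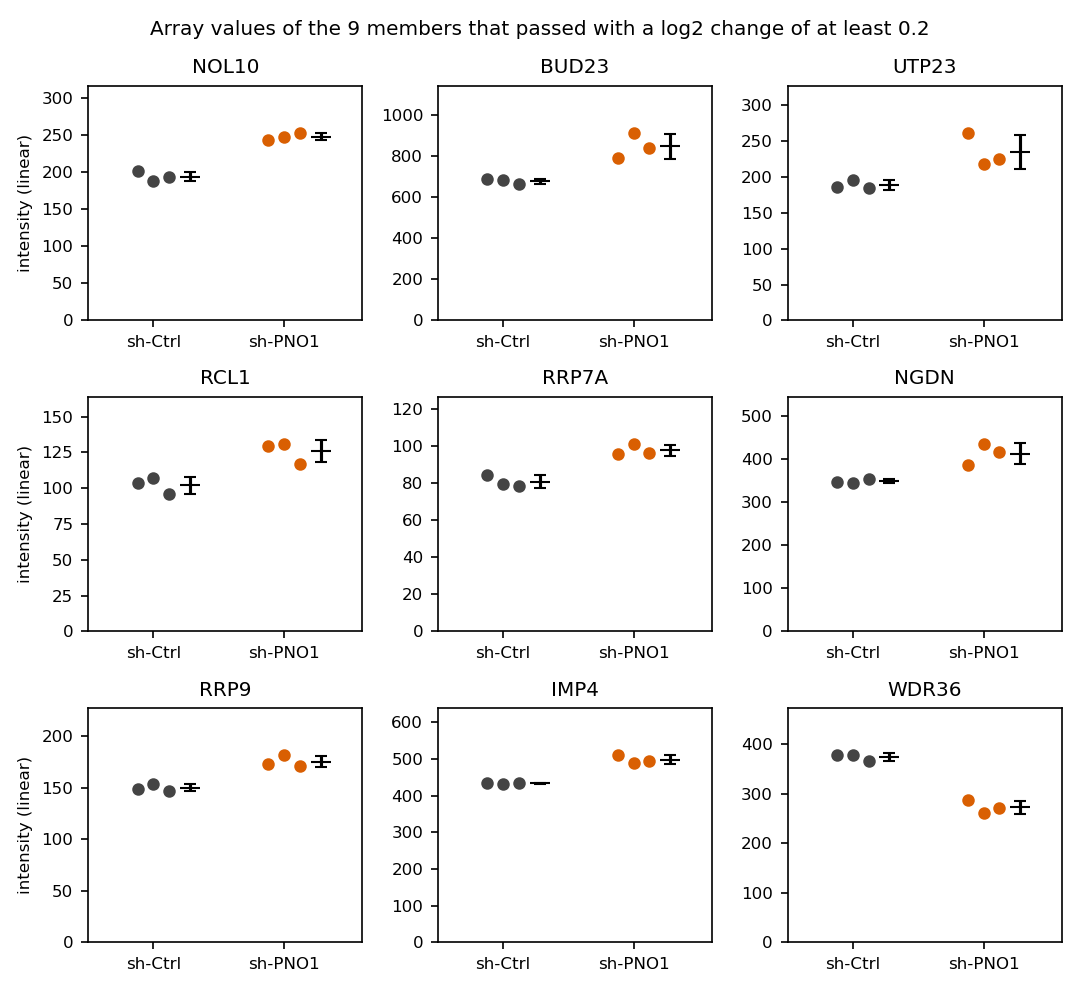
Linear intensity (vertical axis, from 0) of the brightest probe set on each of the 3 sh-Ctrl (grey) and 3 sh-PNO1 (orange) arrays for the 9 members that passed with a log2 change of at least 0.2. The bar beside each group is its mean with 1 SD. In all 9 genes the groups do not overlap, WDR36 being the one that is lower in sh-PNO1.

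The remaining processome proteins did not pass on their brightest probe sets (0 of 6, with 1 higher and 2 lower at an unadjusted p under 0.05). Of all genes 18.4% rose and 13.2% fell, and whether 0 of 6 differs from this was not tested. WDR46, a scaffold protein of the central particle, stood at 0.13 on each of its 3 probe sets with adjusted p from 0.0741 to 0.105. DCAF13 stood at 0.11, UTP11 at 0.07, NOP9, an RNA-binding protein, at 0.06, KRR1 at −0.11 and UTP20, a very long repeat protein, at −0.20 (adjusted p = 0.0796). KRR1, a KH-domain RNA-binding protein as PNO1 is, was lower on all 5 probe sets, of which 1 passed at −0.22 (adjusted p = 0.0116). UTP11 fell on its dimmer probe set (−0.23, adjusted p = 0.0417), which read 107, 111 and 94.5 in sh-Ctrl and 89.1, 84.9 and 92.6 in sh-PNO1, opposite in sign to the brightest.

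Probe sets of 1 gene did not always pass together. Of the 27 members with 2 or more probe sets, 11 had none that passed, against 5970 of 11734 genes with several. In 16 members, against 5532 of those genes, at least 1 passed and in 1 direction only. Every probe set passed in the same direction in 4 members: NOL11 and UTP23 rose, and WDR36 and WDR75 fell. That is 14.8%, against 11.04% of the 11734 genes with several probe sets. In 0 of the 27 did probe sets pass in opposite directions, against 1.98% of those genes. At an unadjusted p under 0.05 in limma it was 3 of the 27, against 537 of the 11734. Over all 91 member probe sets 17 rose (18.7%) and 12 fell (13.2%), against 14.8% and 13.2% of all probe sets, and their median log2 fold change was 0.03, against 0.01.

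**Figure D4:**
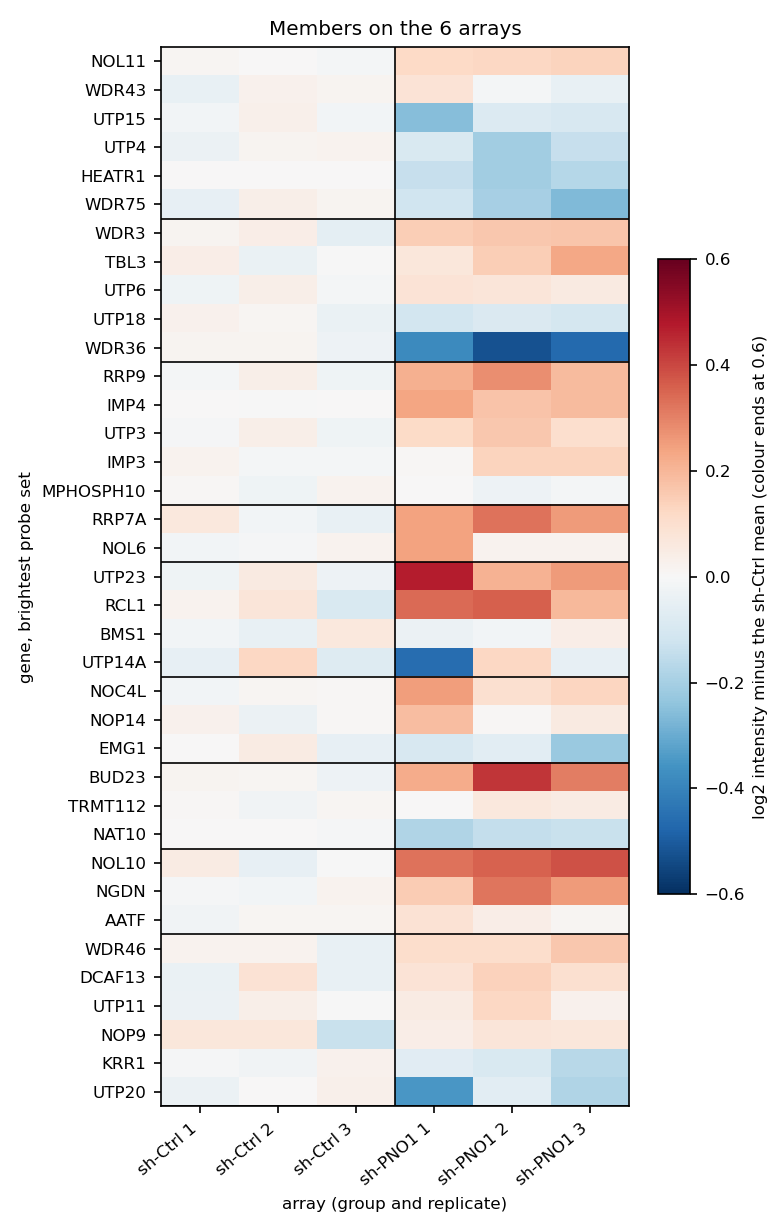
Log2 intensity of the brightest probe set minus its sh-Ctrl mean (colour) for 37 members (rows, grouped by role) on the 6 arrays (columns). The WDR36 row is blue on all 3 sh-PNO1 arrays, the NOL10 and BUD23 rows are red there, and the UTP-A rows other than NOL11 and WDR43 are blue.

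Other factors of the small-subunit pathway gave a comparison from outside the members. These were 18 genes, comprising the U3 box C/D core proteins, helicases and further processome proteins. On the brightest probe set 8 rose (44.4%) and 0 fell in limma (0 also at an unadjusted p under 0.05). Among all genes 18.4% rose and 13.2% fell. Their own median log2 fold change was 0.09, against 0.03 for all genes. Over all 38 probe sets of the 18 genes 16 rose and 1 fell, the dimmest of ESF1 (−0.33, adjusted p = 0.0437). DDX47 was very dim, at 2.83 to 3.53. The helicase DDX49 read 208, 209 and 201 in sh-Ctrl and 296, 272 and 291 in sh-PNO1, a log2 fold change of 0.47 ± 0.05 SE (adjusted p = 0.000244). PDCD11, a large RNA-binding scaffold, rose by 0.29, the helicase DDX10 by 0.24 and RRP12 by 0.25. The core proteins that bind all box C/D small nucleolar RNAs did not pass: FBL, the methyltransferase, stood at −0.004, NOP56 at −0.02, NOP58 at 0.05 and SNU13 at −0.04. Whether this list differs from the members was not tested.

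Without the sh-PNO1 replicate 2 array, the one with the larger ACTB difference, 9 members rose and 2 fell, of which 8 and 1 were the same genes as with all arrays. Of the 4 members that fell with all arrays WDR36 alone still passed, HEATR1 (adjusted p = 0.0501), NAT10 (0.0506) and WDR75 (0.0703) did not, and UTP20 now passed (0.0284). Among those that rose NOL11 (0.0914) and WDR3 (0.0722) lost the call and NOC4L gained one (0.0477). The 3′ to 5′ difference of GAPDH also separated the groups, lying between −0.03 and −0.01 on the control arrays and between −0.08 and −0.06 on the others, and its part in the results was not tested. In addition, 23 background probe sets, which differ in GC content and have no target, had mean intensities from 2.53 to 804, and only 6 members had a group mean above the brightest of them: UTP18, IMP3, EMG1, BUD23, TRMT112 and UTP11. The GC content of the members' probes was not used here, so the other 31 members may or may not be above their own background, and folds of dim probe sets can be understated.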

How the data were processed

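The authors deposited 1 linear intensity per probe set and array, which RMA had summarised and normalised between arrays per the submitters' processing notes (version, software and genome build not given in the sources used here). Per the labels' protocols, biotinylated cRNA was made from 100 ng of total RNA. Normalisation removes an overall change of messenger RNA, so changes are relative to other genes of the array.

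Log2 was taken and the 102 control probe sets of 49395 were left out. Gene names came from the table of the platform (44988 with 1 symbol, 1832 with several, 2473 not listed). All 49293 others were fitted with lmFit and eBayes in limma 3.58.1 (R 4.3.3) over 6 arrays with no covariate, with Benjamini-Hochberg adjustment. On simulated data with 200 changed probe sets, this step recovered 0% of log2 changes of 0.2, 73% of 0.5 and 98.5% of 1. Far fewer probe sets changed there than passed here, so recovery in these data may differ. A member that did not pass may still have changed by a small amount. The members and lists were chosen with earlier results of these data known, as were tests and alternatives. Every member is named; array values are given for those that passed with a log2 change of at least 0.2, and others given were chosen after their values were seen. Of the other pathway genes the 4 with the smallest adjusted p are named, and the core proteins as a group. C1orf131 was found as FSAF1 through the RefSeq gene table. Promoter sequences are RefSeq's (GRCh38.p14), and motifs were searched on both strands. Array number limits the precision. Replicate numbers did not pair the samples. The 20 alternatives are given in the closing section.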

Additional observations from a re-analysis of the deposited data

How the results depend on the processing

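None of the 14 members that passed changed direction under any of the 20 alternatives. Over 737 values of single members under these alternatives, 615 kept their direction and side of the threshold, 58 lost the call and 46 gained one. Another 16 values, of 7 members (WDR43, BMS1, UTP14A, NOP14, TRMT112, UTP11 and NOP9), changed sign without passing under either setting. The other 2 changed sign and passed: with the probe set of largest interquartile range EMG1 stood at 0.37 (adjusted p = 0.00521) and UTP11 at −0.23 (adjusted p = 0.0329), because that rule picks another probe set. The members that fell, 4 in all, numbered 2 with the replicate number as a block (8 rose), 8 with a trended, robust prior, 7 with log2 of intensity plus 32, 7 with probe sets averaged and 7 with the probe set of largest interquartile range. At an adjusted p under 0.01, 6 members rose and 1 fell, and 11 member probe sets rose and 7 fell. Against a log2 change of 0.2, 0 members rose (2 at an unadjusted p under 0.05) and 1 fell, and 2 member probe sets rose and 4 fell. Without _x_at and _s_at probe sets, 10 member probe sets rose. With each array left out in turn the members that rose numbered 7 to 9 and those that fell 2 to 5, member probe sets that rose 13 to 16 and those that fell 9 to 12, and PNO1 stood at −2.35 to −2.32. For the counts that moved the cause was not tested. The replicate numbers are only shared labels: deviations from the group means of same-numbered arrays correlated at −0.04, 0.10 and −0.03, and 2 of 6 arrays correlated best with their own number.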

Other observations

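Deposited intensities were often exactly equal on different arrays. In 38.9% of the 49293 probe sets, and in 25 of the 91 member probe sets (27.5%), at least 2 of the 6 arrays carry the same value to all digits given. HEATR1, with 322 on all 3 sh-Ctrl arrays and an SD of 0, is the 1 case among member probe sets in which a whole group is identical. Whether such ties affect the calls was not tested.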
